A study of Mus musculus with 12 samples.

Results

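The nuclear genes of the mitochondrial oxidative phosphorylation complexes were taken from the array by symbol: those beginning Nduf (complex I and its assembly factors), Uqcr (complex III), Atp5 (complex V), or Cox4 to Cox8 (complex IV), with Sdha, Sdhb, Sdhc and Sdhd (complex II). Transcript clusters, the array's unit of measurement, were used where the platform annotation named exactly 1 gene, symbols holding -ps were left out, and the transcript cluster with the highest mean stood for its gene. This gave 89 of 19937 genes: 43 for complex I, 4 for complex II, 8 for complex III, 17 for complex IV and 17 for complex V. All 89 passed a filter on low values (the 20th percentile of at least 1 array), Cox7b2 through 1 wild type array and 0 knockout arrays. Some known subunits are not analysed here, such as Cox7c and Ndufb4, whose transcript clusters also named another gene.

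Oxidative phosphorylation is carried out by 5 protein complexes of the inner mitochondrial membrane. Complexes I to IV pass electrons from NADH and succinate to oxygen and complex V, the ATP synthase, makes ATP from the proton gradient that complexes I, III and IV build. Most subunits are encoded in the nucleus, and the remainder in mitochondrial DNA. In bone marrow, quiescent stem cells are known to rely more on glycolysis, and dividing progenitors and erythroid precursors on respiration.

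The groups were 6 E4bp4-/- and 6 E4bp4+/+ mice, 1 array each. Nfil3, a bZIP transcription factor on which natural killer cells depend, is the current symbol of E4bp4. The E4bp4-/- mice are called knockout and the E4bp4+/+ mice wild type here. RNA came from hind leg marrow after magnetic depletion of cells bearing Ter119, GR1, CD11b, B220, CD2 or NK1.1, a mixed fraction rich in progenitors. Age, sex, strain and the design of the targeted allele are not given in the sources used here. Levels are log2 values of the authors' RMA normalisation, and differences are knockout minus wild type on that log2 scale. SD is over the 6 arrays of a genotype. SE is the moderated standard error of the limma linear model fit to all 12 arrays. It draws the variance of each gene towards a value shared by the transcript clusters tested. In such a bulk sample, fewer cells of a type and less RNA per cell cannot be told apart.

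Array medians ran from 6.50 to 6.62. Nfil3 itself was lower in the knockout by -0.68 ± 0.13 (SE), with 6 of 6 knockout arrays below the lowest wild type array; its two-sided exact permutation p was 0.00216, the smallest that 924 permutations can give, and its limma adjusted p 0.14. Kit, the stem cell factor receptor, averaged 11.26 on knockout and 11.07 on wild type arrays. Of 5 genes of the depleted antigens Klrb1c (NK1.1) did not pass the filter on low values, while Ptprc (B220 is one of its forms; 8.88 and 8.75), Itgam (CD11b; 7.69 and 7.39), Cd2 and Ly6g did. Knockout replicate 1 stood apart: Xist was at 6.08 against 12.10 to 12.65 on the other arrays, the Y-linked Uty at 7.70 against at most 4.66, and the neutrophil granule gene Ngp at 12.01 against at most 10.21. By Xist and Uty this array alone had a male signal, so sex by signal was not balanced between the genotypes. Counts and medians of the pathway and marker lists that move most with knockout replicate 1 are given below with and without it.

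None of the 89 genes passed an adjusted p of 0.05 in limma (lowest adjusted p 0.17), and 0% of the 29541 transcript clusters tested did. Most genes had small negative differences: 66 of 89 (74.2%), against 44.1% of all transcript clusters, were lower in the knockout, with a median difference of -0.048 (lower to upper quartile -0.080 to 0.00067) against 0.015 over all transcript clusters. At an unadjusted p under 0.05 there were 15, all of them lower and 0 higher, which is 16.9% of the genes. Over all transcript clusters, 14.9% had such a p in either direction, 6.39% lower and 8.47% higher, so the share of the genes with such a p was near the background and its direction was not evenly split. The sign of the median was negative under both other scalings: -0.030 after quantile normalisation, with 61 genes lower, and -0.088 when arrays were centred on their medians, with 79 lower. Centring also moved the median of all transcript clusters, to -0.025.

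The differences were also small in size. The largest was 1.19-fold, and the 95% confidence interval of each of the 89 differences lay within 0.5 log2 of zero (1.41-fold) in either direction. The intervals reached lowest for Atp5md, to -0.38, and highest for Cox6a2, to 0.48. Standard errors ran from 0.029 to 0.12, with a median of 0.046, about the size of the median difference itself.

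**Figure D1:**
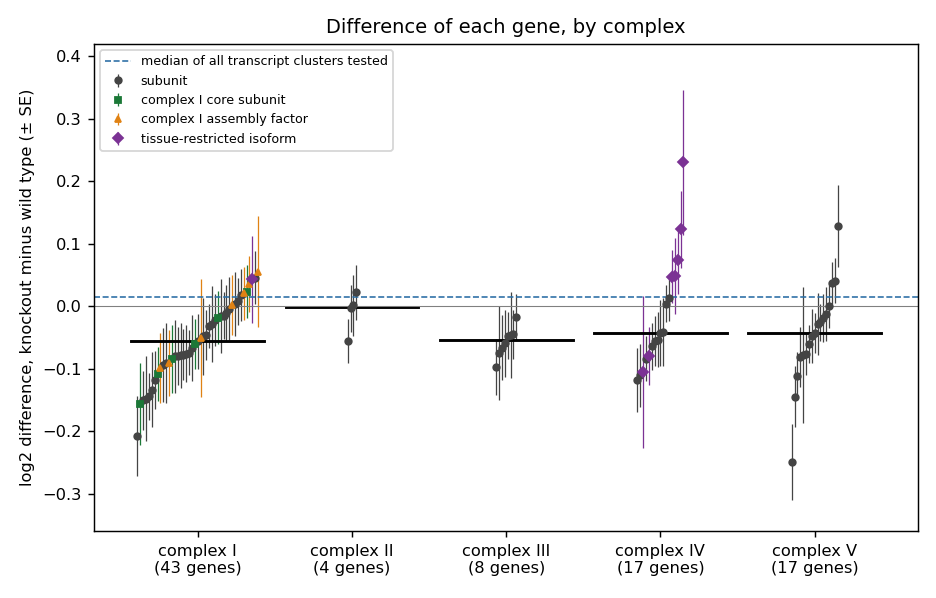
Log2 difference (knockout minus wild type, ± SE, 6 arrays each) of each of the 89 genes, sorted within its complex, with symbols for the kind of gene, a black bar at the complex median and a dashed line at the median of all transcript clusters tested (0.015). Medians of complexes I, III, IV and V lie between -0.056 and -0.042 and that of complex II at -0.00074.

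Transcription of these genes is known to depend on nuclear respiratory factor 1 (NRF1), on the ETS family factor GABP and, for many, on YY1. RefSeq promoter windows of build GRCm38.p6, from 250 bases before to 50 after the start, were found for 73 of the 89 genes (78 windows). The following 3 are shown, 5′ to 3′ as 250 bases up to the start, because they belong to genes among the 15 and hold such motifs. Capitals mark the full palindromic NRF1 consensus (the first run in Cox6a1), the shorter NRF1 letters TGCGCA, or the ETS letters CCGGAAG, which read CTTCCGG on the other strand.
Cox6a1: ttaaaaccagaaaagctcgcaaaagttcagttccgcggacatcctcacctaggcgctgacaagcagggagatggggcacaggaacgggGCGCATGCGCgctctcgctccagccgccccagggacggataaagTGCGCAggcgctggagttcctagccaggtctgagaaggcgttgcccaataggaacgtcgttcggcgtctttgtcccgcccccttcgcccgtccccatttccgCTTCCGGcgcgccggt
Atp5h: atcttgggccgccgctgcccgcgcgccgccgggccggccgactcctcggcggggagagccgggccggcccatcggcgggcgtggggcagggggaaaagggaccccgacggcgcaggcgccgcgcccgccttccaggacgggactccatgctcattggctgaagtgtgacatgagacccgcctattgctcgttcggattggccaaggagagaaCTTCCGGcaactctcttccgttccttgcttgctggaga
Ndufs3: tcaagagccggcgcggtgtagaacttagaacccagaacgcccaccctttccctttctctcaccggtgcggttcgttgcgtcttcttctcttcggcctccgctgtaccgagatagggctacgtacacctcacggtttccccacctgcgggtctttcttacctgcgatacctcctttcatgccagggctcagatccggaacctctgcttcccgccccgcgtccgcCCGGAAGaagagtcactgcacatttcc
The Cox6a1 window lies at chr5:115348959-115349208, that of Atp5h at chr11:115419920-115420169 and that of Ndufs3 at chr2:90904722-90904971, all on the minus strand. Cox6a1 holds all 3 motifs, with the ETS letters 16 to 10 bases before the start.

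On either strand, the full NRF1 consensus stood in 7 of the 78 windows (8.97%) against 0.971% of all 32851 windows and 1.56% of the windows of genes tested here. TGCGCA, which can overlap it, stood in 24.4% against 7.76% and 11%, and CCGGAAG in 23.1% against 8.86% and 13.1%. The YY1 letters AAGATGGC stood in 10 windows (12.8%) against 2.75% and 3.35%. In 8 of these 10 they lay on the gene's own strand within 50 bases after the start. Their first base was at position 23 to 39. Letters on that strand after the start were found in 10.3% of the windows, against 0.865% of all and 1.45% of those of tested genes. Stretches of 22 bases around them are shown for 4 genes, with AAGATGGC in capitals.
Ndufs4: ctacaggAAGATGGCggcggtc
Ndufs6: caccggcAAGATGGCggcggtg
Ndufs7: cgaggccAAGATGGCggcgctg
Ndufa9: gtgggagAAGATGGCggccgcc
These lie at chr13:114388045-114388066 and chr13:73328435-73328456 on the minus strand, chr10:80249466-80249487 on the plus strand and chr6:126849101-126849122 on the minus strand.

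The full binding letters of NFIL3, TTACGTAA, were in 0 of the 78 windows, against 0.119% of all windows and 0.149% of those of tested genes. The shorter TTACGT was also in 0, against 2.72% and 2.78%. TGACGTCA (a cyclic AMP response element) stood in 5.13%, against 1.79% of all windows and 2.54% of those of tested genes. CACGTG (an E-box) stood in 8.97% against 7.15% and 8.76%, near the share of tested genes. GGGGCGGG (a GC box) stood in 23.1% against 16.5% and 25.6%. Among the 15 genes with an unadjusted p under 0.05, which have 13 windows, the full NRF1 consensus stood in 1, TGCGCA in 5, CCGGAAG in 4 and AAGATGGC in 1. Ndufs7 and Ndufa3, whose windows hold AAGATGGC, had differences of 0.024 ± 0.043 and 0.046 ± 0.042, and Ndufs4 and Ndufa9 of -0.080 ± 0.058 and -0.066 ± 0.052. A match describes letters in a window and is no measure of binding.

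Complex I, the NADH dehydrogenase, had 33 of 43 genes lower, a median of -0.056 and 8 genes with an unadjusted p under 0.05, all lower. The 36 genes with Nduf symbols other than the Ndufaf assembly factors were lower in 30 cases, with a median of -0.063. Complexes were assigned by symbol alone, so Ndufa4 and Ndufa4l2 count here by name only. Of the 6 core subunits measured, which carry the flavin and iron-sulphur centres or shape the quinone site, 5 were lower. Among the accessory subunits of the Ndufb series, which sit in the membrane arm, 8 of 9 were lower and 4 of them had such a p. The 15 genes of the Ndufa series had a median of -0.027.

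Ndufb9, a membrane arm subunit, had the lowest p of complex I. Its knockout arrays ran from 11.32 through a median of 11.41 to 11.47, and its wild type arrays from 11.49 through 11.56 to 11.58. The groups did not overlap, the only such case among the 89 genes; 0.65% of all transcript clusters were lower without overlap and 0.619% higher. The difference was -0.14 ± 0.038 (SE), or -9.49%, with an exact permutation p of 0.00216 and a limma adjusted p of 0.18, which did not pass.

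Ndufa5, a subunit of the arm that reaches into the matrix, ran from 7.78 through 8.04 to 8.14 in the knockout and from 8.12 through 8.19 to 8.35 in the wild type. Of the knockout arrays 5 lay below the lowest wild type array, and knockout replicate 1 was the lowest. Its difference was -0.21 ± 0.065, the most negative of complex I, with a limma adjusted p of 0.21.

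Ndufa1, a small X-linked membrane subunit, ran from 7.96 through 7.98 to 7.995 in the knockout and from 7.93 through 8.15 to 8.22 in the wild type. The knockout arrays lay close together and 5 wild type arrays lay above them all, while wild type replicate 2 was the lowest array of either genotype. The difference was -0.15 ± 0.048, with a limma adjusted p of 0.22. Ndufb5, another membrane arm subunit, ran from 10.49 through 10.51 to 10.53 in the knockout and from 10.49 through 10.66 to 10.73 in the wild type, a difference of -0.12 ± 0.047. The knockout SD of these genes was 0.014 and 0.011, against 0.11 and 0.10 in the wild type.

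Ndufs3, a core subunit of the matrix arm, ran from 10.46 through 10.61 to 10.65 in the knockout and from 10.62 through 10.70 to 10.76 in the wild type. Ndufs1, the large iron-sulphur core subunit, ran from 9.82 through 9.94 to 10.11 and from 9.94 through 10.12 to 10.25. Ndufb3, of the membrane arm, ran from 7.48 through 7.73 to 7.77 and from 7.67 through 7.83 to 7.97. All 3 overlapped between genotypes, with differences of -0.11 ± 0.043, -0.16 ± 0.066 and -0.13 ± 0.060 and limma adjusted p-values of 0.29, 0.31 and 0.33. Knockout replicate 1 was the lowest knockout array for Ndufs3 and Ndufs1 and replicate 2 for Ndufb3. The other transcript cluster of Ndufs3 differed by -0.059 ± 0.089.

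The 7 assembly factors of complex I, which build it without staying in it, had 3 lower and 4 higher, a median of 0.0020 and 0 with an unadjusted p under 0.05. Ndufaf1 and Ndufaf7 differed by -0.098 ± 0.055 and -0.090 ± 0.053, and Ndufaf3 by 0.036 ± 0.045 (limma adjusted p 0.42, 0.44 and 0.735). Ndufaf3 was at -0.0043 after centring on array medians, at 0.012 without knockout replicate 6, 0.014 without wild type replicate 6 and 0.022 without wild type replicate 2. Ndufaf7 was at -0.059 without wild type replicate 3.

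**Figure D2:**
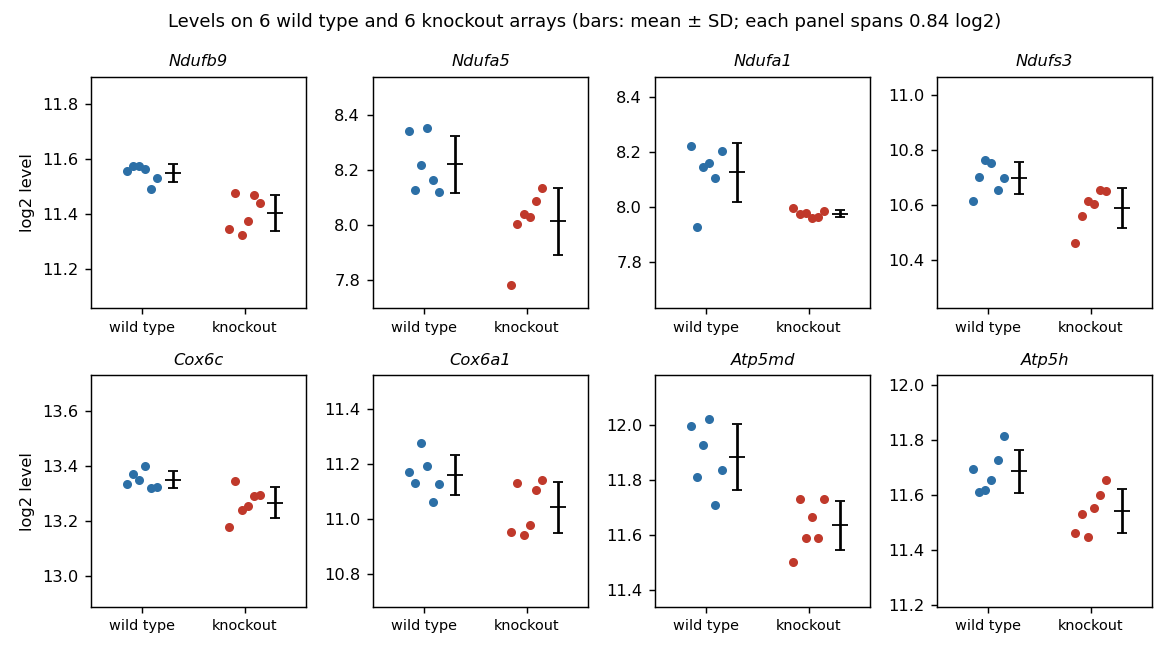
Log2 level of 8 genes on each of the 6 wild type (blue) and 6 knockout (red) arrays, with mean ± SD as black bars and the same span on every axis. Ndufb9 is without overlap between genotypes, and the lowest points of Ndufa5, Ndufs3, Cox6c and Atp5md are knockout replicate 1.

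Complex II, succinate dehydrogenase, links the citric acid cycle to the chain and had the median closest to 0 of the 5 complexes. Sdha, the flavoprotein, ran from 11.43 through 11.53 to 11.60 in the knockout and from 11.46 through 11.54 to 11.58 in the wild type. Sdhb, the iron-sulphur subunit, ran from 10.06 through 10.15 to 10.21 and from 10.14 through 10.20 to 10.22. The groups overlapped for both. The differences of Sdha, Sdhb, Sdhc and Sdhd were -0.0031 ± 0.038, -0.055 ± 0.035, 0.023 ± 0.044 and 0.0016 ± 0.048, and their limma adjusted p-values 0.98, 0.48, 0.84 and 0.99. Sdhc and Sdhd are the membrane anchors; both turned negative after centring on array medians (-0.017 and -0.039) and Sdha turned positive after quantile normalisation (0.023). The median of the 4, -0.00074, was 0.027 after quantile normalisation and -0.041 after centring; centring moves every gene down alike, as it moved the median of all transcript clusters from 0.015 to -0.025. With 1 array left out the median ran from -0.015 to 0.020, so it had no settled direction. The 95% interval of Sdha ran from -0.085 to 0.079.

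Complex III, the cytochrome bc1 complex, had 8 of 8 genes lower, with a median of -0.053 and a range from -0.097 to -0.017. None had an unadjusted p under 0.05. Uqcrfs1, the Rieske iron-sulphur protein, ran from 8.58 through 8.68 to 8.76 in the knockout and from 8.66 through 8.78 to 8.84 in the wild type, a difference of -0.097 ± 0.045 (limma adjusted p 0.34). The groups overlapped, with 3 knockout arrays below the lowest wild type array. Uqcrq, a small subunit, and Uqcrc1, one of the core proteins, differed by -0.066 ± 0.052 and -0.047 ± 0.038 (limma adjusted p 0.57 for both). Without knockout replicate 1 Uqcrc1 was at -0.027, and without knockout replicate 4 Uqcrq was at -0.041. The median of complex III was -0.038 without knockout replicate 1 and -0.080 without knockout replicate 6.

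Complex IV, cytochrome c oxidase, had 10 genes lower and 7 higher, with a median of -0.042. Vertebrates hold some of its subunits as a widely expressed isoform and one restricted to muscle, lung, testis or brown fat. Of the 10 genes without such restriction 8 were lower, with a median of -0.054, and of the 7 tissue-restricted isoforms 5 were higher, with a median of 0.048. With Ndufa4l2 of the complex I symbols, 6 of 8 restricted isoforms were higher. This split was not tested as a difference, and the restricted isoforms had wide errors or low signal. Cox7b2, at 4.79 and 4.87, reached the filter, which stood at 4.93 to 4.99 on single arrays, in wild type alone, where it was higher. Without it 9 genes of complex IV were lower and 7 higher, and 65 of 88 genes over all complexes were lower.

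Cox6c ran from 13.18 through 13.27 to 13.34 in the knockout and from 13.32 through 13.34 to 13.40 in the wild type. Of the knockout arrays 5 lay below all wild type arrays, and replicate 2 did not. Its difference was -0.083 ± 0.036, and its other transcript cluster, at 13.07 and 13.10, differed by only -0.032 ± 0.032. Cox6a1, the widely expressed form of subunit VIa whose promoter is printed above, ran from 10.94 through 11.04 to 11.14 and from 11.06 through 11.15 to 11.28, a difference of -0.12 ± 0.051. Cox7a2, the widely expressed form of subunit VIIa, ran from 10.40 through 10.50 to 10.60 and from 10.53 through 10.56 to 10.74, a difference of -0.11 ± 0.050. Knockout and wild type overlapped for all 3 (limma adjusted p 0.31, 0.31 and 0.34).

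Cox6a2, the muscle form of subunit VIa, ran from 6.96 through 7.25 to 7.51 in the knockout and from 6.73 through 6.95 to 7.40 in the wild type. Its difference, 0.23 ± 0.12, was the largest positive one of the 89, with overlapping groups and knockout replicate 1 highest (limma adjusted p 0.37). Cox8b, the muscle and brown fat form of subunit VIII, differed by 0.12 ± 0.062 (limma adjusted p 0.37). Cox7b2, a testis form, differed by -0.079 ± 0.046. It passed the filter in wild type alone, so its direction is no result. Cox4i2, a lung form of subunit IV, differed by 0.074 ± 0.054, Cox7a1, the heart and muscle form of subunit VIIa, by 0.048 ± 0.043 and Cox8c, a testis form, by 0.048 ± 0.060. Cox6b2, another testis form, was uneven among the knockout arrays, with an SD of 0.31 against 0.097 in the wild type and knockout replicate 1 lowest at 9.76. Of 8 skeletal muscle markers 5 were higher, with a median of 0.038, and of 4 brown fat markers all 4, with a median of 0.12, of which Elovl3 passed the filter in knockout arrays alone. Without knockout replicate 1 these medians were 0.060 and 0.058. The part of such cells in these values was not tested.

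Complex V had 13 of 17 genes lower, a median of -0.043 (-0.014 after quantile normalisation) and 4 genes with an unadjusted p under 0.05, all lower. Atp5md, a small subunit of the membrane part, had the lowest p of all 89 genes. It ran from 11.50 through 11.63 to 11.73 in the knockout and from 11.71 through 11.88 to 12.02 in the wild type. The groups overlapped only in that wild type replicate 5 lay below the highest knockout arrays. The difference was -0.25 ± 0.061, or -15.9%, with an exact permutation p of 0.0065 and a limma adjusted p of 0.17. Its other 2 transcript clusters differed by -0.26 ± 0.054, without overlap, and -0.19 ± 0.061.

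The other 3 genes encode parts of the peripheral stalk, which holds the catalytic head still. Atp5h ran from 11.45 through 11.54 to 11.66 in the knockout and from 11.61 through 11.67 to 11.82 in the wild type, a difference of -0.14 ± 0.049. The other transcript clusters of Atp5h differed by -0.15 ± 0.051 and, at levels of 4.91 and 5.17, by -0.26 ± 0.14. Atp5pb ran from 11.24 through 11.35 to 11.42 and from 11.39 through 11.45 to 11.52, a difference of -0.11 ± 0.038. Its other transcript cluster, at 10.72 and 10.74, differed by only -0.024 ± 0.038. Atp5o, the subunit that joins stalk and head, ran from 11.22 through 11.25 to 11.32 and from 11.29 through 11.33 to 11.38, a difference of -0.076 ± 0.034. For Atp5h and Atp5pb 5 knockout arrays lay below the lowest wild type array and for Atp5o 4, and limma adjusted p-values were 0.23, 0.23 and 0.33. Atp5j, the remaining stalk gene, differed by -0.043 ± 0.032. Atp5b, the catalytic beta subunit, differed by -0.061 ± 0.030 (limma adjusted p 0.37).

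Of the 89 genes, 17 had more than 1 transcript cluster, and signal from related sequences elsewhere in the genome cannot be told apart there. Of the 24 transcript clusters not used, 20 were lower and 4 higher, with an unadjusted p under 0.05 for 6 lower and 1 higher; 0 passed the adjusted threshold in limma. Those of 4 genes went both ways. Atp5l, the g subunit of complex V, was the most divided: its 5 transcript clusters differed by 0.13 ± 0.066 (the brightest), -0.17 ± 0.051, 0.021 ± 0.054, 0.20 ± 0.10 and -0.26 ± 0.070, so it has no direction here.

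Array by array, each gene was set against its own mean over the 12 arrays. Over the 89 genes the median deviation of the knockout arrays ran from -0.074 through -0.015 to 0.016, and of the wild type arrays from -0.0013 through 0.016 to 0.055. The genotypes overlapped: knockout replicates 1, 2 and 3 lay below all wild type arrays and replicates 4, 5 and 6 did not. On knockout replicate 1, 78 of the 89 genes were below their own mean, and on wild type replicate 4 only 16 were. Knockout replicate 1 was the lowest knockout array for 38 genes and replicate 3 for 23. Without knockout replicate 1 the median difference was -0.040, with 65 genes lower, and 7 genes rather than 15 had an unadjusted p under 0.05, all lower. The background share of transcript clusters lower at that p was then 5.14%. The count was likewise 7 without wild type replicate 3 or 4, and 9 without knockout replicate 2 or 3.

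**Figure D3:**
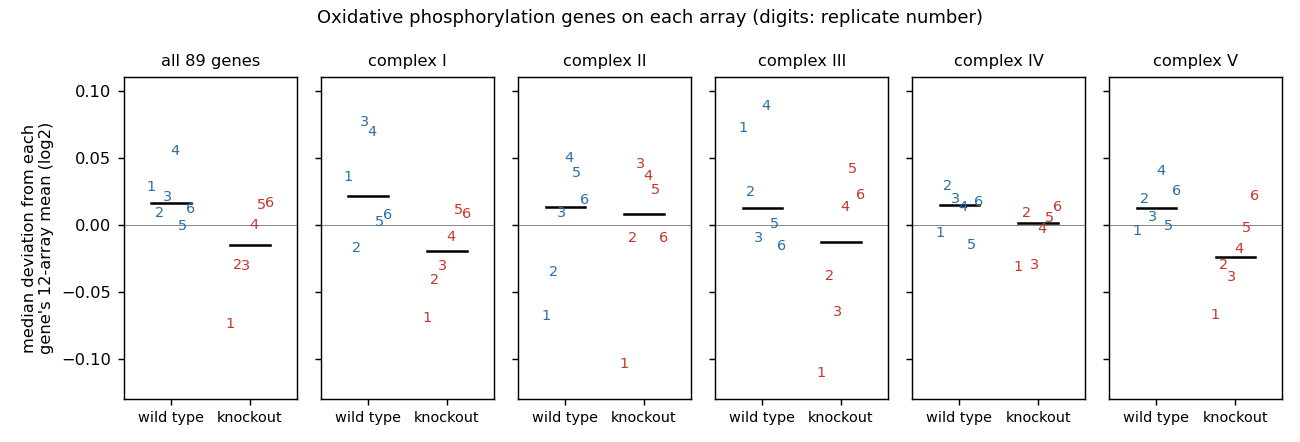
Median deviation of the genes from their own 12-array means on each array (log2), over all 89 genes and by complex, with each array drawn as its replicate number and a bar at the genotype median. Knockout replicate 1 is the lowest array in every panel.

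With genotype means removed, the genes had mostly positive correlations across arrays: the median correlation of their 3916 pairs was 0.18 and 67.6% of pairs were above 0, against 0.01 and 51% for all genes tested. It was 0.40 within complex III, 0.20 within complex I, 0.12 within complex V and 0.088 within complex IV. The 6 pairs of complex II, at 0.69, had the highest median of the 5 complexes. These are descriptions over 12 arrays whose pairs share arrays. Knockout replicate 1, on which complex II stood apart, was kept in, and correlations without it are not given.

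Other genes of mitochondrial energy metabolism, from lists written for this comparison, gave 0 adjusted calls in limma. Of the mitochondrially encoded subunits COX2 was at -0.058 ± 0.055 and ND3 at -0.028 ± 0.041, with a median of -0.043, or -0.018 without knockout replicate 1. Cyc1, the cytochrome c1 subunit of complex III, differed by -0.087 ± 0.034 without overlap between genotypes, and Cycs, cytochrome c, by -0.080 ± 0.053. Of 36 assembly factors outside the symbol rule 26 were lower, with a median of -0.034; an unadjusted p under 0.05 was found for 3 lower and 1 higher. Without knockout replicate 1, 21 were lower, with a median of -0.021. Cox17, the copper chaperone of complex IV, differed by -0.27 ± 0.065 without overlap, Sdhaf4, an assembly factor of complex II, by -0.20 ± 0.062, and Coa4 by 0.091 ± 0.037.

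Of 15 regulators of mitochondrial gene expression 7 were lower and 8 higher, with a median of 0.014; 4 lower and 2 higher had an unadjusted p under 0.05. Of the 2 higher, Ppargc1a, a coactivator of mitochondrial biogenesis, passed the filter in knockout arrays alone, so its direction is no result. The other, Polrmt, differed by 0.13 ± 0.050 (limma adjusted p 0.26), with 5 knockout arrays above the highest wild type array. Tfam, which packages and transcribes mitochondrial DNA, differed by -0.27 ± 0.071, Tfb1m, a methyltransferase of mitochondrial ribosomal RNA, by -0.20 ± 0.051 without overlap, and Gabpa, the DNA-binding subunit of GABP, by -0.11 ± 0.037 (limma adjusted p 0.18, 0.18 and 0.23). Of 15 citric acid cycle and pyruvate dehydrogenase genes 10 were lower (median -0.029), with Dld at -0.10 ± 0.047, Dlst at -0.10 ± 0.047 and Pdhb at -0.15 ± 0.070. Of 14 glycolysis genes 6 were lower and 8 higher (median 0.032), with Hk1 at -0.099 ± 0.050, Eno3 at -0.14 ± 0.075 and Pfkp at 0.20 ± 0.15. Without knockout replicate 1, 9 of the 14 were lower, the median was -0.019 and Pfkp was at 0.066, so the list has no settled direction. Of 8 genes of ATP and ADP transport and uncoupling 6 were lower (median -0.059, or -0.041 without knockout replicate 1). Among them were the outer membrane channel genes Vdac3 at -0.13 ± 0.042 and Vdac1 at -0.080 ± 0.037. The ATP synthase inhibitor Atpif1 was at -0.094 ± 0.035, without overlap.

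Other families of widely expressed genes also had mostly negative differences. Of 77 mitochondrial ribosomal protein genes 66 were lower (85.7%, median -0.076), of 39 proteasome subunit genes 35 (89.7%, median -0.071) and of 60 cytosolic ribosomal protein genes 44 (73.3%, median -0.040). At an unadjusted p under 0.05, 10.4%, 33.3% and 10% of them were lower, beside 16.9% of the oxidative phosphorylation genes. All come from the same arrays and scaling.

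**Figure D4:**
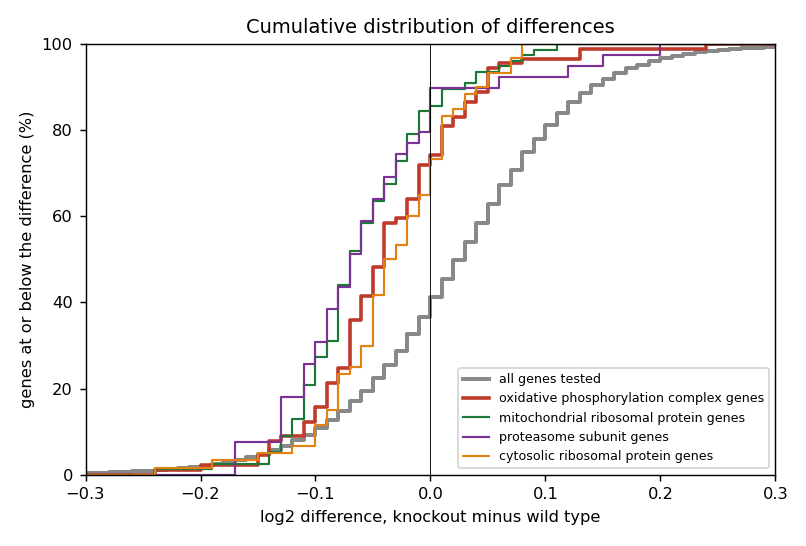
Percentage of genes at or below each log2 difference (knockout minus wild type), for the 89 oxidative phosphorylation genes, 3 other gene families and all 17807 genes tested. At 0 the oxidative phosphorylation curve stands at 74.2% and that of all genes at 41.2%, with 85.7% for the mitochondrial ribosome, 89.7% for the proteasome and 73.3% for the cytosolic ribosome.

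None of the markers of cell state and type passed the adjusted threshold. Of 22 cell cycle genes 21 were lower in the knockout (median -0.11, 14 with an unadjusted p under 0.05); their mean level ran from 11.60 to 11.72 on knockout and from 11.71 to 11.83 on wild type arrays, with knockout replicate 1 lowest. All 11 erythroid genes were lower (median -0.13), with mean levels of 10.85 to 11.31 and 11.15 to 11.49, and knockout replicate 1 was again the lowest. Without it 9 of 11 were lower, with a median of -0.039, and the cell cycle median was -0.095. All 8 progenitor markers were higher (median 0.17), at 10.04 to 10.47 against 9.92 to 10.21, with knockout replicate 1 highest. Without that array 7 of 8 were higher, with a median of 0.13. Of 12 neutrophil genes 11 were higher (median 0.35), with a mean level of 10.20 on knockout replicate 1 and at most 8.83 on wild type arrays. The other knockout arrays, at 7.75 to 8.75, lay within the wild type range, and without replicate 1 the median was 0.055 with 8 of 12 higher. Megakaryocyte (7 of 7), monocyte (7 of 7), plasma cell (7 of 7) and B cell (6 of 7) genes were higher, with medians of 0.41, 0.23, 0.17 and 0.19. Without knockout replicate 1 these medians were 0.49, 0.047, 0.16 and 0.11, and 5 of 7 monocyte genes were higher. Stromal genes had 6 of 8 lower (median -0.11). Endothelial genes had 4 of 7 higher (0.13, or 0.074 without that array) and T and NK cell genes 6 of 7 (0.071). Of the stromal genes, Lepr passed the filter in wild type alone and Kitl in knockout alone, so their directions are no result. Without knockout replicate 1, 8 of 8 stromal genes were lower (median -0.098) and 5 of 7 T and NK cell genes higher (0.073). Both stromal counts and medians still include Lepr and Kitl. Of the antigens used for depletion, all 4 that passed the filter on low values were higher (median 0.20), and without knockout replicate 1 they were 3 of 4 (median 0.0073). The part of these cells in the values of the oxidative phosphorylation genes was not tested.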

How the data were processed

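RNA of 12 mice was measured on Affymetrix Mouse Gene ST arrays, and the log2 levels analysed were made by the authors with the RMA16 algorithm in GeneSpring GX version 11, per the series design text. The log2 scale was inferred from the deposited values (3.18 to 14.33). RMA is meant to make arrays alike in distribution, which would hide a change common to most genes. The deposited arrays were not fully alike, with medians from 6.50 to 6.62. Of the probe annotation used, the version is not given here.

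Of 34760 transcript clusters, 29541 reached the 20th percentile of at least 1 array and were compared by lmFit and eBayes of limma (version 3.58.1, run in R 4.3.3) without covariates (Benjamini-Hochberg adjusted p of 0.05, as the series design text outlines). Platform annotation named 1 gene for 21640. A two-sided exact permutation test over the 12 arrays was added for single genes, unadjusted. The 89 genes, the gene lists and the motifs were chosen with earlier results of these data known. Genes named in detail are Nfil3, the 4 Sdh genes and, since 0 genes passed, those of lowest unadjusted p: 7 subunits and 3 assembly factors of complex I, 3 of complex III, 6 of complex IV, 5 of complex V and up to 3 per pathway list; others named are members or were chosen after their values were seen. The fit was first tested on simulated data. Alternatives covered the filter, scaling, variance prior, array weights, choice of transcript cluster, complex membership, replicate block and arrays left out. The labels do not say whether arrays with the same number belong together. The number of arrays limits the precision of every value.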

Additional observations from a re-analysis of the deposited data

Results flagged for a closer look

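Of 70 sets of values of 1 genotype, 4 held an array that stood away from the remaining 5 by Dixon's gap test; by chance alone about 1 in 20 sets, 3.5 here, would. Ndufa5 on knockout replicate 1 was at 7.78, below the next knockout array at 8.005. On the same array the median deviation of complex II was -0.10, with the next at -0.010. Ndufb3 on knockout replicate 2 was at 7.48, with the next at 7.67. Nfil3 on wild type replicate 1 was at 7.66, with the next at 7.18.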

How the results depend on the processing

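No alternative gave a call at adjusted p 0.05 for any of the genes it tested (limma; 89, but 85 with the filter at the 50th percentile and 88 without wild type replicate 2; 15 had an unadjusted p under 0.05), and the median over the genes was negative under all of them. Centring each array moved the count of genes lower at an unadjusted p under 0.05 to 32, beside a background that went from 6.39% to 12.6%, and the medians to -0.088 over all genes, -0.096 for complex I, -0.083 for complex IV and -0.083 for complex V; quantile normalisation gave -0.014 for complex V and a count of 10 lower, 9 of them among the 15, and 1 higher. The count was 7 without both arrays numbered 1, and ran from 7 to 15 when 1 array was left out: 7 without knockout replicate 1 or wild type replicate 3 or 4, 9 without knockout replicate 2 or 3, and 10 without wild type replicate 1. The median of complex IV then ran from -0.066 to -0.035. The sign turned for Ndufaf3 (-0.0043), Sdhc (-0.017) and Sdhd (-0.039) on centring, which lowers every gene by the same amount and so turns any small positive value, for Sdha with quantile normalisation (0.023), array weights (0.0014) and without both arrays numbered 1 (0.0036), and for Sdhd with array weights (-0.00056). With 1 array left out Sdha ran from -0.017 to 0.017 and Sdhd from -0.016 to 0.033. The cause of the other turns was not tested. Arrays sharing a number correlated above 0.1 in 3 of 6 cases, at 0.46 for those numbered 1, and 3 of 6 matched their own number best. These values do not settle whether the numbers mark pairs, and the main fit did not use them. With the replicate number as a block the count was 12 lower and 2 higher and the median -0.048. Lists without knockout replicate 1, and counts without Cox7b2, were chosen after seeing the data.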
